A study of Mus musculus with 8 samples.

Results

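The BCL-2 family members examined were 10 genes taken by name from the deposited expression table of naive and Th17 cells, out of 16308 genes listed there. They were the prosurvival genes Bcl2, Bcl2l1 and Mcl1, the effector genes Bax and Bak1, and the BH3-only genes Bcl2l11, Bid, Bbc3, Pmaip1 and Bad. The series held 8 libraries of ribosome-depleted RNA from CD4+ T cells of C57BL/6 mice, 2 libraries in each of 4 groups. Naive cells were untreated. Th17 cells, helper T cells known for secreting interleukin 17, came from a culture of 72 h that held anti-CD3ε (0.25 µg/mL), anti-CD28 (1 µg/mL), TGF-β (0.1 ng/mL) and the cytokine IL-6 (20 ng/mL). These doses stand in the sample labels, whereas the growth protocol gives a range for TGF-β that starts at this dose and the treatment protocol also names a shorter time. The column headers of these naive and Th17 libraries mark them as WT, wild-type, and also hold the name Malat1. The other groups were wild-type and DDX5-deficient (DDX5∆T) Th17 cells of the same culture time. For these only editing sites were used here, and their expression was not analysed here. The comparison asked how the members' transcripts differed between naive cells and the Th17 cells made from CD4+ cells in culture. No group was activated without TGF-β and IL-6. Activation, time in culture and the Th17 cytokines therefore cannot be told apart in any difference below.

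BCL-2 family proteins decide whether the outer mitochondrial membrane is breached. BAX and BAK form the pores that release cytochrome c, the prosurvival proteins BCL-2, BCL-XL (from Bcl2l1) and MCL-1 hold them in check, and BH3-only proteins such as BIM (from Bcl2l11), PUMA (from Bbc3) and NOXA (from Pmaip1) respond to stress or cytokine loss and bind the prosurvival proteins. In T cells, BIM is known for removing cells that lack cytokine or have been overstimulated, BCL-2 and MCL-1 for keeping naive cells alive, and BCL-XL for appearing after activation through CD28.

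Short stretches of the members' promoters are shown first, so that letters shared by members can be set beside how those members moved. Promoters were the 250 bases before and 50 bases after each start in RefSeq (GRCm38.p6), with 15 promoters for 9 members. They were searched on both strands for a STAT motif (TTCNNNGAA), a FOXO motif (GTAAACA), the MYC E-box (CACGTG) and an NF-kB motif (GGG, any 2 bases, then TTTCC), and no match to one motif overlapped a match to another. The FOXO letters stood in 2 of the 15 promoters, those of Bcl2l11 and Bbc3, and in 3.65% of all 32851 promoters. The NF-kB letters stood in 3 of the 15, one each of Bcl2l1, Mcl1 and Bbc3, and in 1.63% of all promoters. The E-box stood in 2 of the 15, of Bax and Bbc3, against 7.15% of all, and the STAT letters in 0 of the 15, against 8.30% of all. The Bbc3 matches to the different motifs lay in promoters of different starts of that gene. A second E-box of Bax and the E-box and NF-kB matches of Bbc3 are not shown. The sequences run 5′ to 3′ on the strand of the gene, and capitals mark the match, which in Bbc3 (FOXO) and in the 3 NF-kB matches lies on the opposite strand.
Bcl2l11 FOXO, chr2:128125802-128125826, plus strand: gacactaggGTAAACAcgccggggt
Bbc3 FOXO, chr7:16310085-16310109, plus strand: tggcgggttTGTTTACaaacaatgg
Bcl2l1 NF-kB, chr2:152830917-152830944, minus strand: acgcctctcGGAAAAACCCgggagtggt
Mcl1 NF-kB, chr3:95658684-95658711, plus strand: cagccctccGGAAACGCCCgcccctttc
Bax E-box, chr7:45466893-45466916, minus strand: gatgatgatCACGTGactagtcct
Such matches describe letters, not binding. Of the genes with the NF-kB letters, Bcl2l1 was higher in Th17 cells and Mcl1 and Bbc3 were lower, and of those with the E-box, Bax was higher and Bbc3 lower. Bcl2l11 and Bbc3, which carry the FOXO letters, were both lower, although Bbc3 lost its call without either naive library.

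Libraries held 11768994 to 26624436 reads on genes, and levels are given as CPM, reads scaled to a common library size, with sizes scaled by TMM. Th17 markers such as Il17a, Il17f and Il23r summed to 0.563 to 0.796 CPM in naive and to 3568 to 3979 CPM in Th17 libraries, and 6 of 6 were called higher. These markers passed the filter on low counts through their Th17 reads, so the count of calls adds nothing to the sums. Naive markers such as Ccr7 and Lef1 went from 6684 to 6870 CPM in naive to 1061 to 1135 CPM in Th17 libraries, and CD4 T cell markers such as Cd3e and Cd4 from 4939 to 5643 down to 2169 to 2450 CPM. Listed B cell markers (7 of 8 genes) summed to 2.49 to 3.17 CPM in naive and 0.624 to 1.29 CPM in Th17 libraries. Of 2 tested genes among them 1 was called lower and 1 not called. Both passed the filter on low counts through their naive reads and could not count as higher. Pax5, with 3 naive and 4 Th17 reads, was not tested. Myeloid markers (10 of 11) summed to 17.4 to 26.2 CPM in naive and 8.64 to 8.71 CPM in Th17 libraries. Of 8 tested myeloid genes 1 was called higher, 5 lower and 2 not called. Those called lower had at most 9 reads in any Th17 library and passed the filter on low counts through their naive reads. The gene called higher passed it through its Th17 reads. The direction of these calls was thus tied to the filter. CD8 and NK markers summed to 90.8 to 107 CPM in naive and to 145 to 237 CPM in Th17 libraries. Of 6 tested genes of that list 2 were called higher and 3 lower. All tested genes gave 34.3% higher and 30.7% lower. Gzmb went from 1.43 and 0.986 to 185 and 91.1 CPM, whereas Prf1 went from 52.8 and 59.6 to 4.68 and 5.61 CPM and Cd8b1 from 20.9 and 27.4 to 14.7 and 13.3 CPM. Cd8a was at most 0.704 CPM in any library. What other cells contributed to the changes below was not tested, and in bulk RNA fewer cells of a type and less RNA per cell cannot be told apart.

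Th17 libraries held much more Bcl2l1 and Pmaip1 transcript than naive libraries, 14.2-fold and 19.5-fold by the fitted changes, more Bax and Bak1, and less Bcl2l11 and Mcl1. All 10 members passed the filter on low counts. Calls rest on an adjusted p below 0.05 from the quasi-likelihood test of edgeR, with the Benjamini-Hochberg procedure over all 11989 tested genes. Of the 10 members 9 were called, 5 higher and 4 lower in Th17 cells. Over all tested genes 65.1% were called, 34.3% higher and 30.7% lower. The libraries of both groups did not overlap for 9 of the 10 members, against 85.0% of all tested genes. The members, like all tested genes, moved in both directions, with a median log2 fold change of 0.20 against 0.06, and a median absolute change of 0.81 against 0.89. Without naive library 1 or without naive library 2, 5 members were called, since Bak1, Bid, Bbc3 and Bad lost the call in either case. The series design describes the libraries as independent biological replicates. A p-value here measures only spread between libraries, 2 per group, and the fit draws each gene's variance toward a trend over all tested genes.

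**Figure D1:**
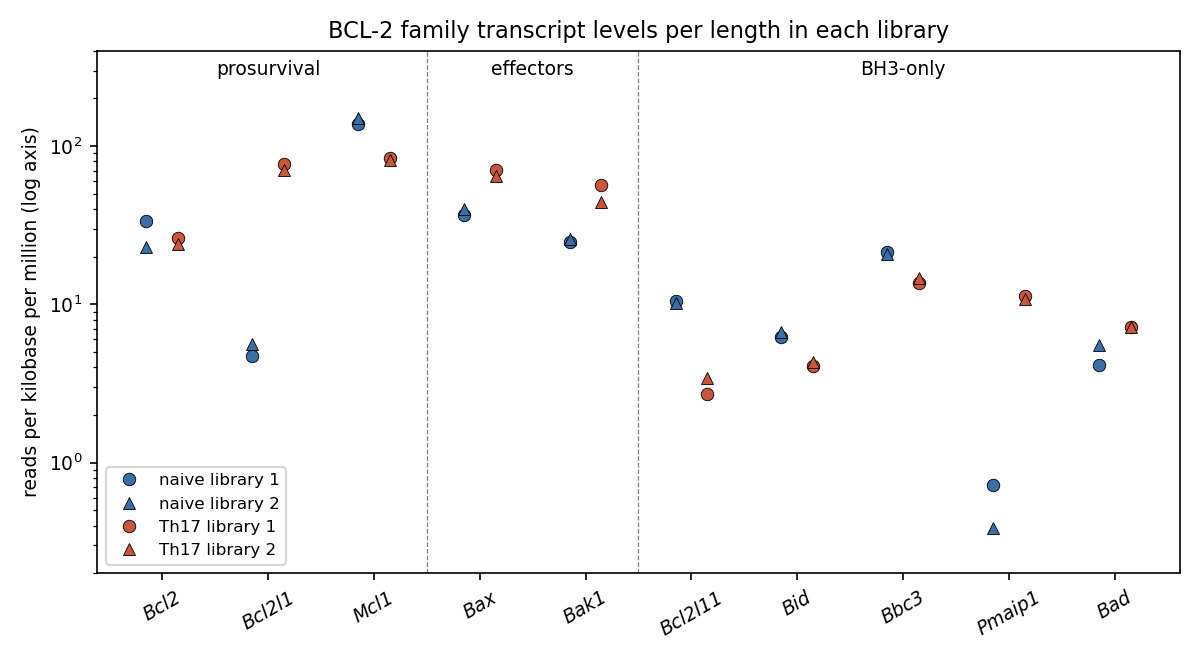
Level of each member per length (RPKM, CPM per kilobase of merged exons, log axis) in each of the 4 libraries, grouped by role. Bcl2l1 and Pmaip1 lie far higher in the Th17 libraries, Bcl2l11 lies lower, and the libraries of both groups overlap for Bcl2 alone.

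Bcl2l1, which encodes BCL-XL (chr2:152780668-152831728, minus strand, mm10), was at 21.8 and 25.7 CPM in the naive libraries and at 351 and 324 CPM in the Th17 libraries. Both Th17 libraries lay far above both naive ones. The mean went from 23.7 ± 2.79 to 337 ± 19.4 CPM (SD, n = 2 each). The log2 fold change was 3.83 (SE 0.18), a 14.2-fold rise, and the adjusted p by edgeR was 4.5e-07. The call was made in each of 10 alternative fits. The gene's isoforms, BCL-XL and the shorter proapoptotic BCL-XS, were not resolved by counts per gene, and the same holds for the long and short products of Mcl1 and Bcl2l11.

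Mcl1 (chr3:95658788-95663176, plus strand), whose protein is short-lived, fell. Its libraries stood at 472 and 517 CPM in naive cells and at 286 and 279 CPM in Th17 cells, without overlap. The mean went from 494 ± 31.5 to 282 ± 5.08 CPM (SD, n = 2 each), a log2 fold change of -0.81 (SE 0.16), 1.75-fold lower, with an adjusted p of 0.0022 by edgeR. The call was made in each of the 10 alternative fits.

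Bcl2 (chr1:106538178-106714274, minus strand) was the member that was not called. It was at 308 and 210 CPM in the naive libraries and at 242 and 220 CPM in the Th17 libraries, so both Th17 values lay between the naive ones. The mean was 259 ± 69.7 CPM in naive and 231 ± 15.6 CPM in Th17 cells (SD, n = 2 each), and the log2 fold change of -0.17 (SE 0.20) had an adjusted p of 0.49 by edgeR. The change was 0.10 (adjusted p 0.52) without naive library 1 and -0.49 (adjusted p 0.058) without naive library 2, so its direction rested on 1 library. The naive libraries also differed by transcript length. Naive library 1 exceeded library 2 by a median log2 of 0.40 over the 1199 tested genes with the longest transcripts and stood at -0.16 against it over the 1199 with the shortest, and Bcl2, with a longest transcript of 7191 bases, differed by 0.55. The corresponding medians between the Th17 libraries were 0.05 and 0.05. The part of transcript length in the Bcl2 values was not tested.

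Per length, the makeup of the prosurvival transcripts changed. Mcl1 held 78.2% and 84.1% of the summed reads per kilobase of Bcl2, Bcl2l1 and Mcl1 in naive and 44.8% and 46.3% in Th17 libraries. Bcl2l1 held 2.69% and 3.12% in naive and 41.0% and 40.1% in Th17 libraries. Bcl2 held 19.1% and 12.7% in naive and 14.1% and 13.6% in Th17 libraries. The Mcl1 and Bcl2l1 shares of the groups thus did not overlap and lay far apart compared with the spread of 4.17 and 0.306 percentage points (SD) between naive libraries, whereas the Bcl2 shares overlapped. These shares carry no test, since 2 libraries against 2 cannot reach 0.05 in an exact test, and they need no scaling between libraries. They depend on the length used. With each gene's longest transcript in place of its merged exons, Bcl2l1 held 53.4% and Mcl1 33.6% in Th17 cells, so which of the 2 led in Th17 cells depended on that choice. In naive cells Mcl1 led in either case, with 81.2% ± 4.17 (SD, n = 2) by merged exons and 76.2% by longest transcripts. The summed level of the 3 genes was 178 ± 2.20 RPKM (CPM per kilobase) in naive and 181 ± 7.41 in Th17 cells by merged exons, a difference within the spread, and 190 ± 0.599 and 246 ± 11.2 by longest transcripts, so no statement on the total can be made from these counts.

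**Figure D2:**
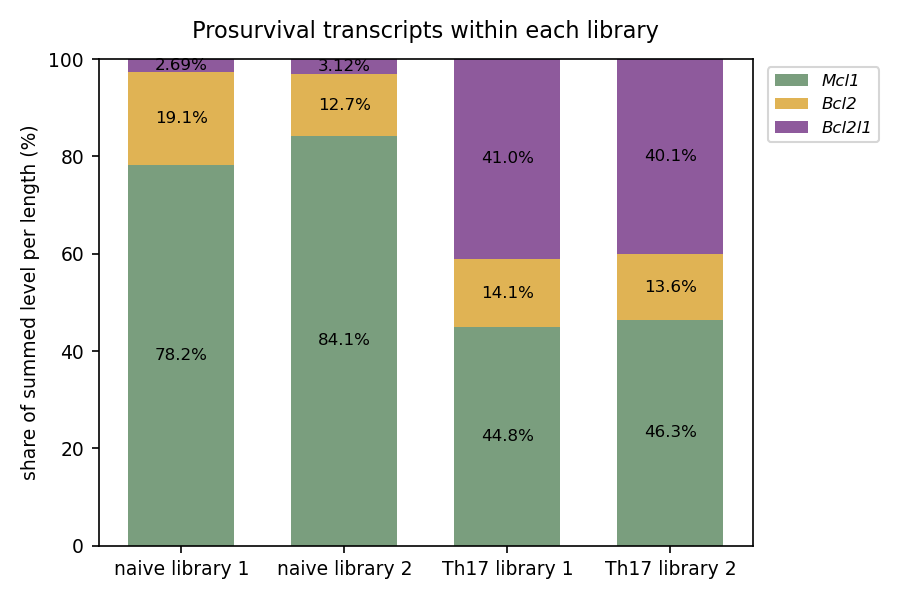
Share (%) of Mcl1, Bcl2 and Bcl2l1 in their summed level per length of merged exons, in each library. Bcl2l1 takes 2.69% and 3.12% in naive and 41.0% and 40.1% in Th17 libraries, and the Mcl1 share goes from 78.2% and 84.1% to 44.8% and 46.3%.

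Both pore-forming effectors rose. Bax (chr7:45461697-45466898, minus strand) stood at 58.1 and 63.3 CPM in naive and at 112 and 102 CPM in Th17 libraries, without overlap. The mean went from 60.7 ± 3.67 to 107 ± 7.07 CPM (SD, n = 2 each), with a log2 fold change of 0.82 (SE 0.15) and an adjusted p of 0.0015 by edgeR. Bax overlaps the gene model Gm45808 on the same strand, so reads in the overlap cannot be assigned. Bak1 (chr17:27019810-27029009, minus strand) stood at 59.8 and 61.9 CPM in naive and at 138 and 106 CPM in Th17 libraries. Its 2 Th17 libraries differed from each other more than the naive ones did, and both lay above them. The mean went from 60.8 ± 1.48 to 122 ± 22.1 CPM (SD, n = 2 each), a log2 fold change of 1.00 (SE 0.17), and the adjusted p by edgeR was 0.00092. Without naive library 1 or 2 the adjusted p of Bak1 was 0.054 and 0.053 by edgeR. The ratio of Bax to Bak1 per length was 1.48 and 1.56 in naive and 1.24 and 1.46 in Th17 libraries. Bak1 overlaps Ggnbp1 on the other strand, which had at most 1.86 CPM in any library.

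**Figure D3:**
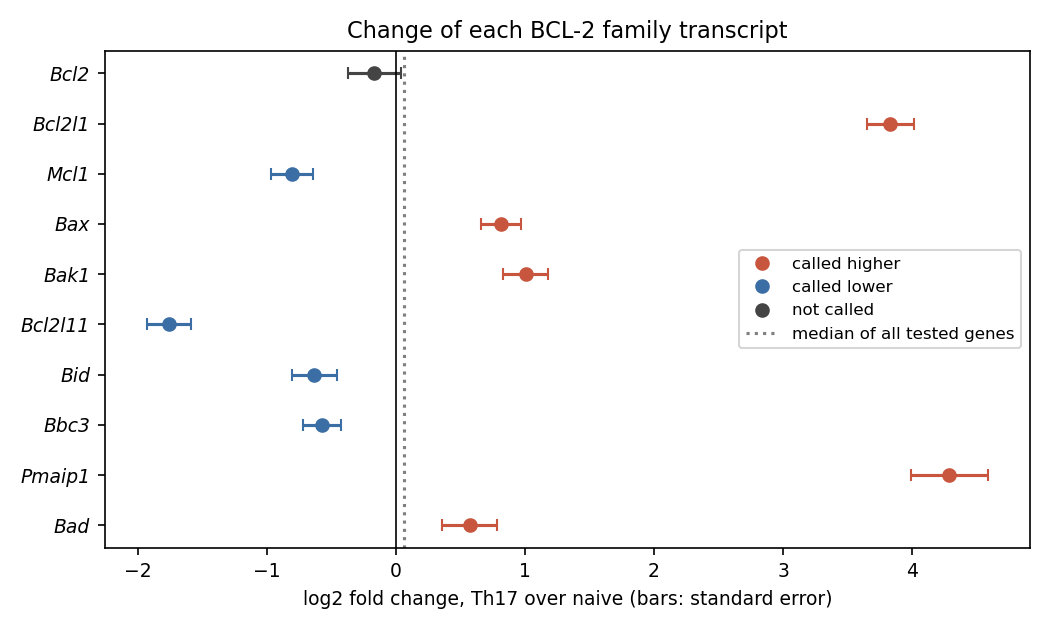
Log2 fold change of each member in Th17 over naive cells with its standard error, coloured by call, with the median of all tested genes as a dotted line. Changes run from -1.76 (Bcl2l11) to 4.29 (Pmaip1), and Bcl2 is the member that was not called.

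The BH3-only members moved both ways, with 3 of 5 lower and 2 of 5 higher, against 30.7% and 34.3% of all tested genes. Without either naive library 1 was called lower and 1 higher, since Bid, Bbc3 and Bad lost the call. Pmaip1 (ENSMUSG00000024521.8), whose product NOXA binds MCL-1, had 1.96 and 1.06 CPM in the naive libraries, from 37 and 15 reads, and 30.6 and 29.6 CPM in the Th17 libraries, from 883 and 390 reads. Both Th17 libraries lay far above them and close to each other. The mean went from 1.51 ± 0.641 to 30.1 ± 0.764 CPM (SD, n = 2 each), a log2 fold change of 4.29 (SE 0.30), 19.5-fold, the largest rise among the members, with an adjusted p of 4.5e-06 by edgeR. It was called in each of the 10 alternative fits.

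Bcl2l11 (chr2:128126038-128162547, plus strand), which encodes BIM, fell most among the members. It stood at 84.2 and 82.1 CPM in the naive libraries and at 21.7 and 27.6 CPM in the Th17 libraries, a gap far wider than that within either group. The mean went from 83.2 ± 1.49 to 24.6 ± 4.15 CPM (SD, n = 2 each), a log2 fold change of -1.76 (SE 0.17), 3.39-fold lower, with an adjusted p of 2.9e-05 by edgeR. The call held in each of the 10 alternative fits.

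Bbc3 (chr7:16308393-16318205, plus strand), which encodes PUMA, a p53 target, stood at 45.2 and 44.4 CPM in naive and 29.0 and 31.4 CPM in Th17 libraries. Bid (chr6:120891930-120916853, minus strand), which links caspase 8 to the mitochondrion, stood at 22.2 and 23.9 CPM in naive and 14.4 and 15.4 CPM in Th17 libraries. Both were lower in both Th17 libraries, without overlap. Bbc3 changed by a log2 of -0.57 (SE 0.15; adjusted p 0.0077 by edgeR), and Bid by -0.63 (SE 0.18; adjusted p 0.012). Both calls were lost without either naive library, at adjusted p of 0.071 and 0.059 for Bbc3 and of 0.058 and 0.072 for Bid by edgeR. Bid shares 913 bases with Bcl2l13 on the opposite strand, and whether the counting used strand is not given in the sources used here, so reads from the overlap cannot be assigned. Bcl2l13 itself had a log2 fold change of -0.12 (SE 0.16) and was not called.

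Bad (chr19:6941861-6951899, plus strand), whose product is held inactive by phosphorylation, stood at 10.6 and 14.2 CPM in naive and at 18.3 and 18.4 CPM in Th17 libraries. The Th17 libraries agreed closely and lay above both naive ones. The log2 fold change was 0.57 (SE 0.21; adjusted p 0.041 by edgeR), and this call was lost in 6 of 10 alternative fits, with adjusted p from 0.022 to 0.19 over all of them. Bad overlaps Gpr137 on the other strand, which was higher in Th17 cells by a log2 of 0.92 (SE 0.18), at 12.6 and 13.5 against 24.4 and 25.2 CPM. The part of Gpr137 reads in the Bad counts was not tested.

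Ordered by RPKM over merged exons, naive cells had Mcl1 at 145 ± 9.20, Bax at 38.5 ± 2.33, Bcl2 at 28.3 ± 7.61 and Bak1 at 25.3 ± 0.614 (SD, n = 2 each). Bbc3 followed at 21.1 ± 0.283, Bcl2l11 at 10.4 ± 0.186, Bid at 6.49 ± 0.326, Bcl2l1 at 5.17 ± 0.608, Bad at 4.84 ± 0.979 and Pmaip1 at 0.553 ± 0.235. Among neighbours in this order, Bcl2 overlapped Bak1 and Bcl2l1 overlapped Bad. In Th17 cells the order was Mcl1 at 82.6 ± 1.49, Bcl2l1 at 73.6 ± 4.22, Bax at 67.8 ± 4.49, Bak1 at 50.7 ± 9.19 and Bcl2 at 25.2 ± 1.70 (SD, n = 2 each). Below them stood Bbc3 at 14.2 ± 0.800, Pmaip1 at 11.01 ± 0.280, Bad at 7.18 ± 0.0266, Bid at 4.19 ± 0.196 and Bcl2l11 at 3.07 ± 0.517, and among neighbours only Bcl2l1 and Bax overlapped. Bcl2l1 thus moved from 8th to 2nd place and Bcl2l11 from 6th to 10th. With longest transcripts, Bcl2l1 led in Th17 cells at 131 ± 7.54, ahead of Bax at 97.1 ± 6.43 and Mcl1 at 82.6 ± 1.49, and Bad stood above Pmaip1.

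Ratios within a library need no scaling between libraries. The ratio of Bcl2l11 to Bcl2l1 per length was 2.21 and 1.82 in naive and 0.0353 and 0.0487 in Th17 libraries, so Bcl2l11 stood above Bcl2l1 in naive cells and far below it in Th17 cells, over all isoforms of each gene. This held with longest transcripts, at 1.97 and 1.63 against 0.0315 and 0.0435. Bcl2l11 to Bcl2 went from 0.312 and 0.447 to 0.103 and 0.143, and Bcl2l11 to Bax from 0.284 and 0.255 to 0.0381 and 0.0532. Pmaip1 to Mcl1 went from 0.00520 and 0.00256 to 0.134 and 0.133. Bcl2l1 to Bcl2 went from 0.141 and 0.245 to 2.90 and 2.94. The libraries of both groups did not overlap in any of these ratios.

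**Figure D4:**
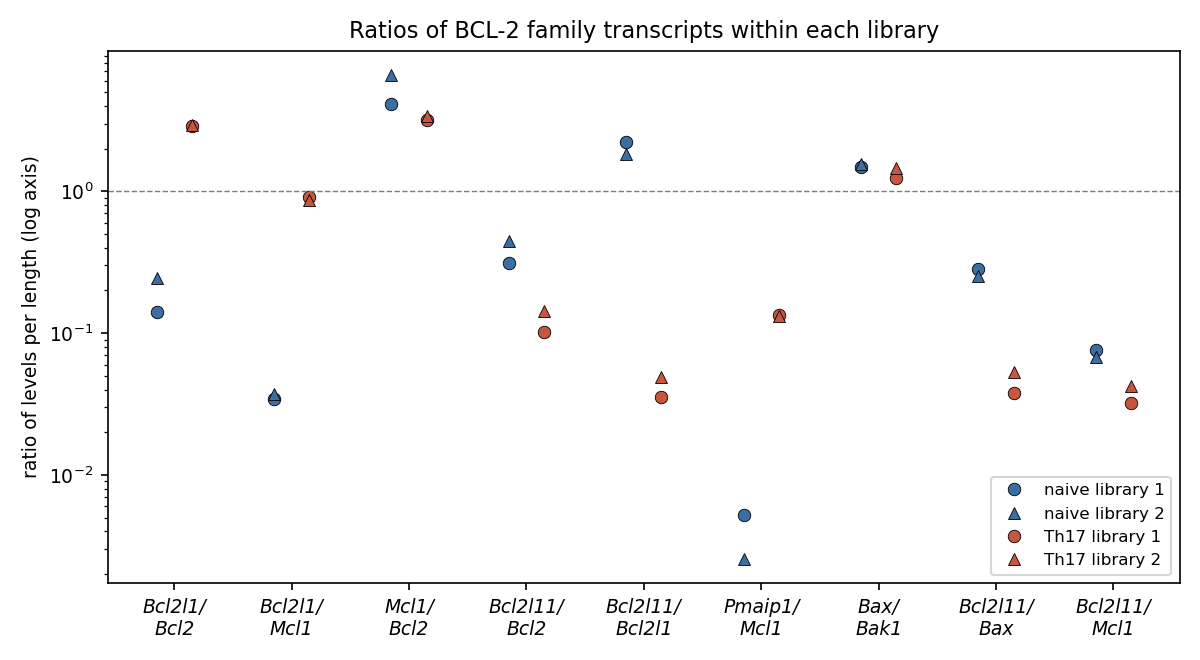
Ratio of the levels per length of merged exons of pairs of members within each library (log axis), with a dashed line at equal levels. Bcl2l11 to Bcl2l1 crosses that line, from 2.21 and 1.82 in naive to 0.0353 and 0.0487 in Th17 libraries, while Bax to Bak1 stays above it.

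The authors' deposited table, made with DESeq2, gave the same sign for 10 of 10 members and an adjusted p under 0.05 for 8 of 10. The exceptions in the authors' deposited table were Bcl2, with an adjusted p of 0.552, and Bad, with 0.0561. Its log2 fold changes were 3.86 for Bcl2l1, 4.36 for Pmaip1 and -1.74 for Bcl2l11 in the authors' deposited table.

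Of 15 other BCL-2 relatives, 13 were tested, and 10 were called higher in Th17 cells, 1 lower and 2 neither. Over all tested genes 34.3% were called higher and 30.7% lower. The relatives' median log2 fold change was 2.96, also with genes without naive reads set at their lower bound, since those bounds lay above it. Bok, Bcl2l15 and Bcl2a1a had at most 2 naive reads each and passed the filter through their Th17 reads. They could thus count only as higher. Bik, with 10 and 11 naive reads, and Bcl2l14, with 33 and 6, also passed through their Th17 libraries. Their direction was thus tied to the filter as well. The 10 called higher include all of these genes, and the median of 2.96 is the value of Bcl2l14 itself. Neither number therefore measures a direction of the relatives. Among prosurvival relatives, Bcl2l2, which encodes BCL-W, went from 2.42 ± 0.931 to 50.2 ± 0.0530 CPM (SD, n = 2 each), a log2 fold change of 4.35 (SE 0.26). Bcl2a1d, one of the mouse A1 genes, went from 1.68 ± 0.419 to 64.3 ± 6.86 CPM, a log2 fold change of 5.28 (SE 0.23), and Bcl2a1b from 3.23 ± 0.513 to 16.2 ± 1.26 CPM (2.32, SE 0.27). The A1 genes are near-identical copies, so their split between loci is uncertain. Bcl2l2, Bcl2a1b and Bcl2l15 overlap the gene models Gm20521, Gm29094 and Gm43064 on the same strand, so reads in the overlaps cannot be assigned. Bcl2a1a had 2 naive and 37 Th17 reads, a ratio of 14.5 (95% interval from 3.75 to 125 for counting error only), and its call was lost in 4 alternatives, among them leaving out either naive library (adjusted p 0.28 and 0.086 by edgeR).

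Bnip3, a mitophagy receptor with a BH3-like segment, went from 6.22 ± 2.26 to 283 ± 29.8 CPM (SD, n = 2 each; log2 fold change 5.52, SE 0.28), and its relative Bnip3l from 176 ± 22.1 to 319 ± 34.4 CPM (0.86, SE 0.17). Bok, a BAX-like gene, had 0 naive reads and 73 Th17 reads, at least 10.1-fold higher against a floor of 3 reads per library, and Bcl2l15 had 0 and 65, at least 8.42-fold higher. Bok and Bcl2l15 lost the call without naive library 1, at adjusted p of 0.053 and 0.058 by edgeR, and 6 relatives were then called higher. Bik rose by a log2 of 2.28 (SE 0.53) and lost the call without either naive library (adjusted p 0.14 and 0.10 by edgeR), and Bcl2l14, with 33 and 6 naive reads, rose by 2.96 (SE 0.62), which was 4.30 without naive library 1 and 2.23 without naive library 2. Bcl2l12 fell, with a log2 fold change of -0.83 (SE 0.18). Bmf, a BH3-only gene, had a log2 fold change of -0.59 (SE 0.33; adjusted p 0.15 by edgeR) and was not called, and Bcl2l10 had 1 read in each Th17 library and was not tested.

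**Figure D5:**
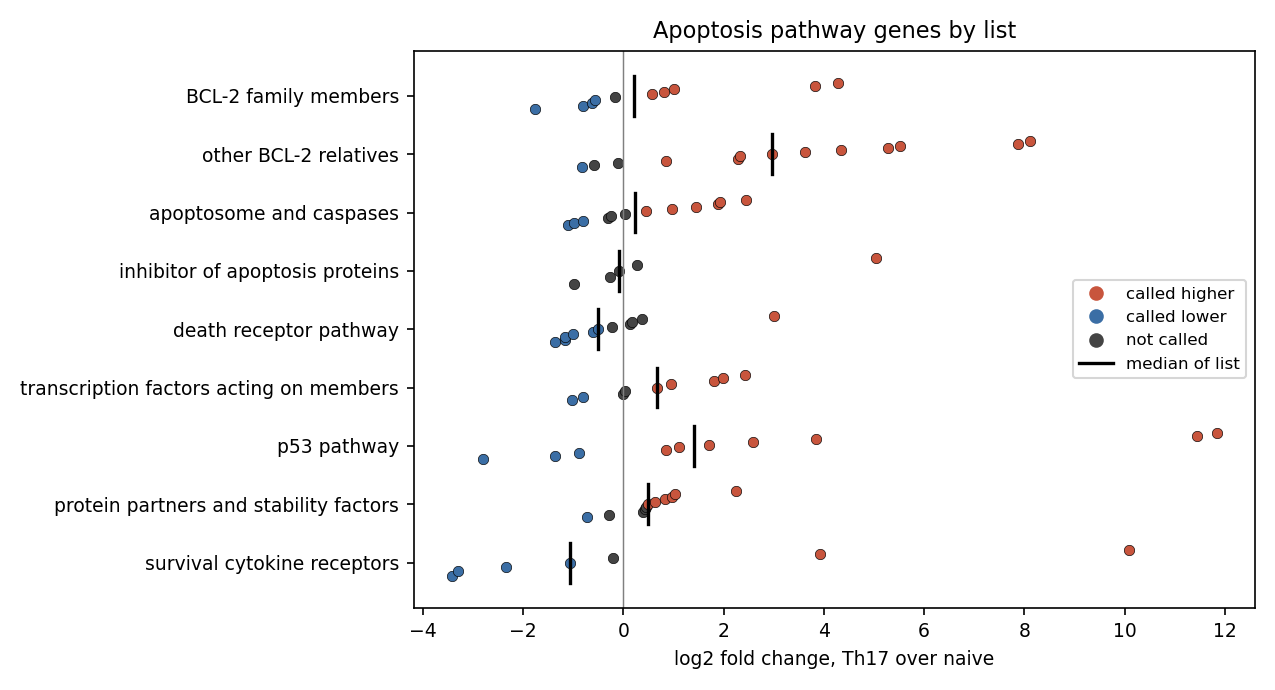
Log2 fold change in Th17 over naive cells of every tested gene of the members and of 8 wider lists, coloured by call, with the median of each list as a bar. The relatives have a median of 2.96, which includes genes that passed the filter through their Th17 reads, and the members of 0.20. Points of genes with few or no naive reads (Bok, Bcl2l15, Perp) are fitted values and no bounds.

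Downstream of the pores, 6 of 12 genes of the apoptosome and caspases were higher in Th17 cells, 3 lower and 3 not called. These counts stand beside 34.3% higher and 30.7% lower over all tested genes. The median log2 fold change was 0.24 against 0.06 over all genes. Casp6 rose by a log2 of 1.94 (SE 0.18), from 27.1 ± 2.95 to 104 ± 14.3 CPM (SD, n = 2 each), and Cycs, which encodes cytochrome c, by 1.88 (SE 0.19). Dffb, the caspase-activated nuclease, had a log2 fold change of -1.10 (SE 0.21), and Diablo, which encodes the IAP antagonist SMAC, of -0.99 (SE 0.27). Of the list's genes 0 were called lower without naive library 1 and 1, Dffb, without naive library 2. Among 5 inhibitor of apoptosis genes, Birc5, which encodes survivin and is known for its part in cell division, rose from 1.76 ± 0.293 to 58.7 ± 10.3 CPM (5.05, SE 0.23), and Xiap, Birc2, Birc3 and Birc6 were not called by edgeR. DESeq2 called Xiap higher, by 0.29, and Birc6, with a change of -0.99 (SE 0.49), was called lower with a replicate block and without naive library 2 or either Th17 library. Birc6 stood at 605 and 250 CPM in the naive libraries, and the part of transcript length in that gap was not tested. The median of that list was -0.08.

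In the death receptor pathway 1 of 11 genes was higher, 6 were lower and 4 not called, with a median of -0.50. The shares over all tested genes were 34.3% higher and 30.7% lower. Tnfrsf10b, the mouse TRAIL receptor, rose by a log2 of 3.00 (SE 0.21), from 6.15 ± 0.0665 to 49.2 ± 12.1 CPM (SD, n = 2 each). Tnfsf10, its ligand TRAIL, had a log2 fold change of -1.38 (SE 0.17), the TNF receptor gene Tnfrsf1a of -1.17 (SE 0.16) and the adaptor gene Fadd of -1.16 (SE 0.19). Fas and Fasl were not called, at adjusted p of 0.071 and 0.75 by edgeR. Fas was called higher with DESeq2 and without Th17 library 2.

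Of 9 tested genes of transcription factors known to act on the members, 5 were higher, 2 lower and 2 not called, with a median of 0.67. For all tested genes the shares were 34.3% higher and 30.7% lower. E2f1 rose by a log2 of 2.42 (SE 0.21), Stat5a by 1.995 (SE 0.17) and Myc by 1.81 (SE 0.19). Foxo1, a known activator of Bcl2l11, went from 401 ± 33.0 to 198 ± 18.4 CPM (SD, n = 2 each), a log2 fold change of -1.02 (SE 0.17), and Trp53, which encodes p53, had -0.81 (SE 0.18). Foxo3, at -0.0061 (SE 0.15), and Stat5b, at 0.034 (SE 0.17), were not called. Any part of these factors in the members' changes was not tested.

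All 10 genes of the p53 pathway list were called, 7 higher and 3 lower, with a median of 1.41. Among all tested genes 65.1% were called, 34.3% higher and 30.7% lower. Cdkn1a and Perp, with few naive reads, passed the filter through their Th17 reads and could count only as higher. Cdkn1a, which encodes the cell cycle inhibitor p21, stood at 0.159 and 0.282 CPM in naive, from 3 and 4 reads, and at 835 and 766 CPM in Th17 libraries, with a log2 fold change of 11.83 (SE 0.31). Perp had 1 naive and 4465 Th17 reads, a ratio of 3511 (95% interval from 630 to 138721 for counting error only), and Sesn2 rose by a log2 of 3.84 (SE 0.21). Sesn1 had a log2 fold change of -2.80 (SE 0.18), the p53 inhibitor gene Mdm4 of -1.37 (SE 0.20) and Trp53inp1 of -0.89 (SE 0.15). Pmaip1, Bax and Bbc3 are among the members known as p53 targets, and no full list of such members was made. Pmaip1 and Bax rose and Bbc3 fell.

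Of 11 protein partners and stability factors of the family, 6 were higher, 1 lower and 4 not called, with a median of 0.49. Shares over all tested genes were 34.3% higher and 30.7% lower. Of the outer membrane channel genes, Vdac1 rose by a log2 of 2.24 (SE 0.18) and Vdac3 by 1.03 (SE 0.17), and Dynll2, which encodes a dynein light chain that binds BMF, by 0.97 (SE 0.15). Tmbim6, which encodes BAX inhibitor 1, had a log2 fold change of -0.74 (SE 0.17). Huwe1 and Usp9x, which encode the ligase and the deubiquitinase known to act on MCL-1, were not called. Their log2 fold changes were -0.29 (SE 0.45) and 0.40 (SE 0.37). The naive libraries lay far apart, at 797 and 345 CPM for Huwe1 and 182 and 95.8 CPM for Usp9x. Naive library 1 also exceeded library 2 over the longest transcripts, by a median log2 of 0.40. The part of transcript length in the Huwe1 and Usp9x values was not tested. Whether these 2 genes changed is thus not settled. The number called higher ran from 5 to 8 over the alternative fits, and was 8 with a replicate block, which added Opa1 and Dynll1. Usp9x was called higher without Th17 library 1.

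Among 7 genes of survival cytokine receptors, 2 were higher, 4 lower and 1 not called, with a median of -1.06. Across all tested genes 34.3% were higher and 30.7% lower. Il2ra went from 2.63 ± 0.266 to 2840 ± 545 CPM and Il2rb from 60.7 ± 9.34 to 918 ± 78.0 CPM (SD, n = 2 each). Il7r, the receptor gene for the cytokine that keeps naive T cells alive, fell from 648 ± 66.5 to 128 ± 5.20 CPM, a log2 fold change of -2.34 (SE 0.18). Il6ra and Il6st had -3.31 (SE 0.18) and -3.42 (SE 0.26).

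The other readout of the series was A-to-I editing, in which ADAR enzymes turn adenosine into inosine. Of 869 sites listed for naive and Th17 cells, 1 lay in a member, in the 3′ UTR of Bcl2l11 as deposited, and was in an exon of 2 GENCODE M21 transcripts (mm10). Its level was 17.1% and 8.82% in the naive libraries, and it carried no level for Th17 cells, whose Bcl2l11 transcript was lower. The read depth behind these levels is unknown. Of 355 sites of the wild-type and DDX5-deficient table, 0 lay in a member or in any wider list. Another site, in the 3′ UTR of Bcl2l13, had 21.4% and 22.2% in the naive libraries. The edited base is in capitals, and that of Bcl2l11 lies within a run of alternating C and A, shown on the plus strand.
Bcl2l11 site, chr2:128160341-128160365: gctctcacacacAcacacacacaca
Bcl2l13 site, chr6:120889719-120889743: actgagcttacaAgcacgtgtcacc
In the wider lists 12 sites lay in genes of the apoptosome and caspases, 11 of them in Dffa and 1 in Casp9, and 6 in Trp53inp1.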

How the data were processed

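RNA was sequenced from naive and Th17 CD4+ T cells, 2 libraries of each. The authors deposited counts per gene, named original per the file headers, and a normalized signal that equalled the count divided by 1 size factor per library. The deposited log2 fold change and its p-value were made by the authors with DESeq2 1.18.1, after STAR 2.6.1a and featureCounts on mm10, per the submitters' processing notes. Counting settings are not given in the sources used here. The deposited editing level was a fraction of edited reads, called with SAILOR at a confidence of 0.99 per the labels, and is printed as a percent.

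Counts were tested with edgeR 4.0.16 in R 4.3.3 (filterByExpr, TMM, robust quasi-likelihood fit on group alone, Benjamini-Hochberg adjustment over all tested genes, threshold 0.05). The procedure was tested on simulated data. Of 16308 gene identifiers 16295 matched GENCODE M21, and 25 symbols stored as dates were restored. Levels per length used merged exons. Naive libraries had 20426728 and 16154625 reads on genes and Th17 libraries 26624436 and 11768994, where 3 reads equal 0.159, 0.211, 0.104 and 0.227 CPM. Log2 CPM correlated across genes at 0.992 between the naive and 0.966 between the Th17 libraries. Intervals are exact 95% intervals and, like floors, reflect counting error alone: reads were amplified by PCR and carry no molecular identifiers, so they are not independent.

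The members and gene lists were chosen with earlier results of these data known. All members and relatives are named, and of each wider list up to 3 called genes with the largest rise and up to 3 with the largest fall, of which a few are not reported here. Genes named beyond this rule (Fas, Fasl, Foxo3, Stat5b, Xiap, Birc2, Birc3, Birc6, Huwe1, Usp9x, Opa1, Dynll1, Gpr137, Ggnbp1 and the marker genes Gzmb, Prf1, Cd8a, Cd8b1 and Pax5) were chosen after their values were seen. Alternatives were DESeq2 1.42.0, RLE scaling, other filters, no robust estimation, a replicate block, leaving out each library, and other lengths. Expression of the wild-type and DDX5-deficient libraries was not analysed here.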

Additional observations from a re-analysis of the deposited data

How the results depend on the processing

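Over 54 genes chosen by the naming rule and 10 alternative fits, 538 values were obtained, of which 512 kept direction and side of the threshold, 25 kept direction but lost the call and 1 turned. The one that turned was Bcl2, at 0.10 without naive library 1, and leaving out 1 library gave -0.49 to 0.10. Of 51 such genes called, 40 were called in every alternative, and of the 100 values of members 87 kept both and 12 lost the call. The number of genes called was 7800, and it was 8626 with DESeq2, 7808 with RLE scaling, 6865 with no filter, 6907 with a minimum mean normalized count of 10 and 7818 without robust estimation; members called were 9 with DESeq2 and RLE scaling and 8 with the other 3. Leaving out 1 library gave 5003 to 8519 genes called, 2380 to 4847 of them higher and 2567 to 3672 lower. It gave 5 to 9 members called, 3 to 5 higher and 2 to 4 lower. The lowest of these counts came without a naive library, where the lone naive library is assumed to vary like the Th17 libraries; these fits rest on fewer samples.

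Replicate 2 of the naive and of the Th17 cells carry the same library identifier in the labels, whereas their replicates 1 carry different ones, and the labels do not say what it marks. Deviations of same-numbered libraries from their group means correlated at -0.05 across 11989 genes. With 2 libraries per group this is a single contrast, which cannot show whether libraries were paired. Since the labels leave the identifier unexplained, the numbers were not taken as pairs. With the replicate number as a block 7738 genes were called, 4094 higher and 3644 lower, and 9 members; among the wider lists Opa1 and Dynll1 gained a call as higher and Birc6 as lower.

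Shares of the prosurvival transcripts moved with the length used. With longest transcripts Bcl2 held 13.0% in Th17 cells, Bcl2l1 4.87% in naive and 53.4% in Th17 cells, and Mcl1 76.2% and 33.6%. With no length Bcl2 held 33.2% in naive and 27.1% in Th17 cells, Bcl2l1 39.7% in Th17 cells, and Mcl1 63.8% and 33.2%. The summed level and the ratio of Bcl2l1 to Mcl1 with longest transcripts were added after seeing the data; that ratio was 0.890 in Th17 cells with merged exons and 1.59 with longest transcripts. Depth limits Bcl2a1a, Bok, Bcl2l15 and Perp, which had at most 2 naive reads in all.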

Other observations

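The tested genes whose profile over the 4 libraries lay nearest to that of Pmaip1, the member with the largest rise, were Cit, Zfp768 and Hmcn2, by the Euclidean distance of gene-centred log2(CPM + 0.5), at 0.0491, 0.0540 and 0.0872. Cit, which encodes citron kinase, a protein of cell division, stood at 2.23 and 1.27 CPM in the naive and 35.3 and 32.7 CPM in the Th17 libraries. Nearest to Bcl2l11, the member with the largest fall, were, among others, Llgl2 at 0.00920 and Mapk1ip1 at 0.0731. Llgl2, a cell polarity gene, stood at 47.1 and 45.8 CPM in the naive and 12.04 and 15.4 CPM in the Th17 libraries. With 4 libraries in 2 groups, such nearness describes these libraries and no more.

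The 3′ UTR of Dffa, which encodes the inhibitor of the caspase-activated nuclease, held 11 of the 869 edited sites listed for naive and Th17 cells, with levels of 15.0% to 60.0% in the naive libraries. Dffa itself was not called, at 49.6 and 55.8 CPM in the naive and 44.7 and 43.8 CPM in the Th17 libraries, and 4 of its sites also carried levels in Th17 cells. The 6 sites of Trp53inp1 had 3.85% to 17.1% in the naive libraries, and its transcript was lower in Th17 cells.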
